A study of Homo sapiens with 12 samples.

Results

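The 44 genes described here encode the writers and erasers of histone and DNA methylation in Du145 cells, a human line derived from a brain metastasis of a prostate carcinoma. They were taken by name, as a list of methyltransferases, demethylases and subunits. A reference of gene symbols matched them to the Ensembl identifiers of both count tables, and all 44 were found among the 60616 genes of the tables. They were chosen with earlier results of these data known. RNA was sequenced from 3 lines, Du145-P (parental, passaged alongside the selected cells without drug), Du145-DtxR (docetaxel resistant) and Du145-CbzR (cabazitaxel resistant), with 2 libraries each. In a second experiment Du145-DtxR cells received a control siRNA (siControl) or an siRNA against BRPF1 (siBRPF1), with 3 libraries each, so that both siRNA groups carry the docetaxel-selected background. The resistant cells had been selected by 72 h pulses of the taxane at doses rising from 1 nM to 125 nM. The siRNA was removed after 24 h and RNA was taken 48 h later. The labels speak of resistant clones, and each resistance is represented by a single selected line; a difference between lines therefore cannot be told apart from a difference between the selected cells themselves. The study's methods call the replicates biological, but neither they nor the labels say that they came from separate cultures or selections, so the p-values rest on a spread between libraries that may be partly technical.

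Histone methyltransferases move a methyl group from S-adenosylmethionine to lysine or arginine residues, and the position decides the meaning: methylation of H3K4 and H3K36 marks active promoters and transcribed gene bodies, and methylation of H3K27 and H3K9 marks repressed chromatin. Lysine demethylases of the flavin-dependent and Jumonji families remove these groups. DNMT1 copies DNA methylation after replication, DNMT3A and DNMT3B place it on unmethylated DNA, and the TET dioxygenases oxidise it as a step towards its removal. BRPF1, the target of the siRNA, is a reader subunit of MOZ/MORF acetyltransferase complexes and not a methylation enzyme. EED and SUZ12 are subunits without catalytic activity of their own, and KMT2E (MLL5) has a SET domain without clear methyltransferase activity.

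Library totals were between 27512422 and 30593573 estimated counts in the experiment on lines and between 16667822 and 17306275 in the siRNA experiment. BRPF1 fell by 1.82 on the log2 scale with siBRPF1 (28.4% of siControl left, adjusted p = 1.8e-06 in edgeR's quasi-likelihood test), as the labels state, and ABCB1, the drug efflux pump of taxane-resistant cells, was higher in Du145-DtxR (log2 fold change 10.35) and Du145-CbzR (12.95) than in Du145-P. With siBRPF1 ABCB1 was not called against siControl (-0.06 ± 0.10 (SE), adjusted p = 0.72 in the same test). Keratin genes marked every group as epithelial, but KLK3, which encodes the prostate-specific antigen, had at most 1 count per group, and CDH1, which encodes E-cadherin, had 36.9 ± 2.90 CPM (counts scaled to library size by TMM; SD, n = 2) in Du145-P against 1.40 ± 0.360 in Du145-DtxR and 0.715 ± 0.0455 in Du145-CbzR. Of 6 marker genes of fibroblasts, leukocytes and endothelium, the summed level was between 2.21 and 12.7 CPM in all 12 libraries and came mostly from COL1A1. KRT19, a keratin of simple epithelia, differed as widely, at 33.2 ± 1.125 CPM in Du145-P, with Du145-DtxR at 178 ± 6.02 and Du145-CbzR at 6.37 ± 0.00353. In the siRNA experiment CDH1 had 3.59 ± 1.39 CPM (n = 3) with siControl and 0.508 ± 0.249 with siBRPF1, and KRT18 had 279 ± 49.5 and 470 ± 41.1 CPM. The summed level of the 5 epithelial markers ran from 424.5 to 448.1 CPM in Du145-P, from 529 to 548 in Du145-DtxR, from 448.5 to 458.4 in Du145-CbzR, from 770 to 989 with siControl and from 1087 to 1267 with siBRPF1, so the siRNA groups did not overlap. The part of CDH1 and of the other markers in the differences between lines and between siRNA groups was not tested. Bulk RNA cannot tell fewer cells with a transcript from less transcript per cell.

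Every one of the 44 genes passed the filter on low counts in both experiments. Levels were highest for NSD2 in the 3 lines (280 ± 7.82 CPM in Du145-P, SD, n = 2) and for DNMT1 in the siRNA groups, and lowest for TET1 in every group (4.46 ± 0.676 CPM in Du145-P), whose lowest library held 68 counts. Between genes, levels were compared only per kilobase of exon, with the union of exons over all annotated transcripts as the length. This length was 20352 bases for NSD2 and 15379 for DNMT1, against 3276 for PRMT5 and 4420 for CARM1. It can exceed the length of the transcripts expressed, so the order of genes holds for this scale only. On that scale TET1 was lowest in every group (0.464 CPM per kb in Du145-P). PRMT5 (24.2 CPM per kb), CARM1 (23.3) and SUZ12 (21.4) were highest on it in Du145-P. The median over the 44 genes was 6.06 CPM per kb in Du145-P, 6.45 in Du145-DtxR and 5.98 in Du145-CbzR.

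For 4 members that were called in the same direction in both resistant lines, 2 higher (SMYD2 and SETD7) and 2 lower (KMT2E and EZH1), the 250 bases before the start site are shown. They were chosen after the values were seen. Only the direction is shared: the log2 fold change of KMT2E was -0.17 in Du145-DtxR and -1.13 in Du145-CbzR. The windows are RefSeq's on GRCh38.p14, at the start of the MANE Select transcript: chr1:214280909-214281158 on the plus strand for SMYD2, chr4:139556220-139556469 on the minus strand for SETD7, chr7:105013955-105014204 on the plus strand for KMT2E and chr17:42745041-42745290 on the minus strand for EZH1. Capitals mark GC boxes (GGGCGG or its reverse complement CCGCCC) and CCAAT boxes (CCAAT or ATTGG), read 5′ to 3′ on the strand of the gene.
SMYD2: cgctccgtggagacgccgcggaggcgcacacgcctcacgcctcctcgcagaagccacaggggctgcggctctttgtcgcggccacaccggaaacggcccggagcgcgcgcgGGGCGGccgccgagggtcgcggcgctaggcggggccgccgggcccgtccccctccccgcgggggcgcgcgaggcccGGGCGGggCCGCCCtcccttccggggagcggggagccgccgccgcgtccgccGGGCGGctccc
SETD7: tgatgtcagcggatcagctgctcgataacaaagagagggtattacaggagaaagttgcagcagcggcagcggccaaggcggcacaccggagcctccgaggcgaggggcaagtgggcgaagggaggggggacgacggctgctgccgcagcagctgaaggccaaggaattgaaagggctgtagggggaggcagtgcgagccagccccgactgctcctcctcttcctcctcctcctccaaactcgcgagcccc
KMT2E: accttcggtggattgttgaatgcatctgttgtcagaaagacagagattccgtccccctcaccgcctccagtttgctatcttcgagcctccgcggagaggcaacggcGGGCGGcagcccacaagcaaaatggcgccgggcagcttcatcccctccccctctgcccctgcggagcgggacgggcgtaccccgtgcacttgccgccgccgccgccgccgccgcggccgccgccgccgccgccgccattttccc
EZH1: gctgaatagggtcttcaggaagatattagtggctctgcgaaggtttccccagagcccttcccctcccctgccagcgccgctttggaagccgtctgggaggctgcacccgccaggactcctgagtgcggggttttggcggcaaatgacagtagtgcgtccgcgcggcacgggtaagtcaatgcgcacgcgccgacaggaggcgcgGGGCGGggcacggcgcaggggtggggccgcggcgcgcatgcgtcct
SMYD2 has 4 GC boxes and 46 CG dinucleotides in this window, KMT2E 1 and 30, EZH1 1 and 26, and SETD7 0 and 16; none of the 4 has a CCAAT box. A window of this kind was found for 40 of the 44 members (not for DNMT3B, DOT1L, NSD3 and SETD1B). Their median was 25.5 CG dinucleotides, against 19.0 over 14470 protein-coding genes. A GC box was present in 72.5% of member windows and 60.4% of all, a CCAAT box in 32.5% and 35.4%, and the E2F motif TTTGGCGC (or its reverse complement) in 0.0% and 0.753%. The genes that rose and those that fell are not separated by these letters.

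The first comparison asks how the enzymes differ between docetaxel-resistant and parental cells. In Du145-DtxR 21 of 44 members were higher and 12 lower at an adjusted p under 0.05, against 31.1% of all 18218 genes tested that were higher and 32.0% that were lower. The differences were small: DNMT3B was the only differentially expressed gene (DEG, also beyond 1 on the log2 scale in either direction) among the members, where 20.4% of all genes were DEGs, and the median of the absolute log2 fold change was 0.276 for the members and 0.462 for all genes. The median log2 fold change was 0.14 for the members and -0.02 for all genes.

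**Figure D1:**
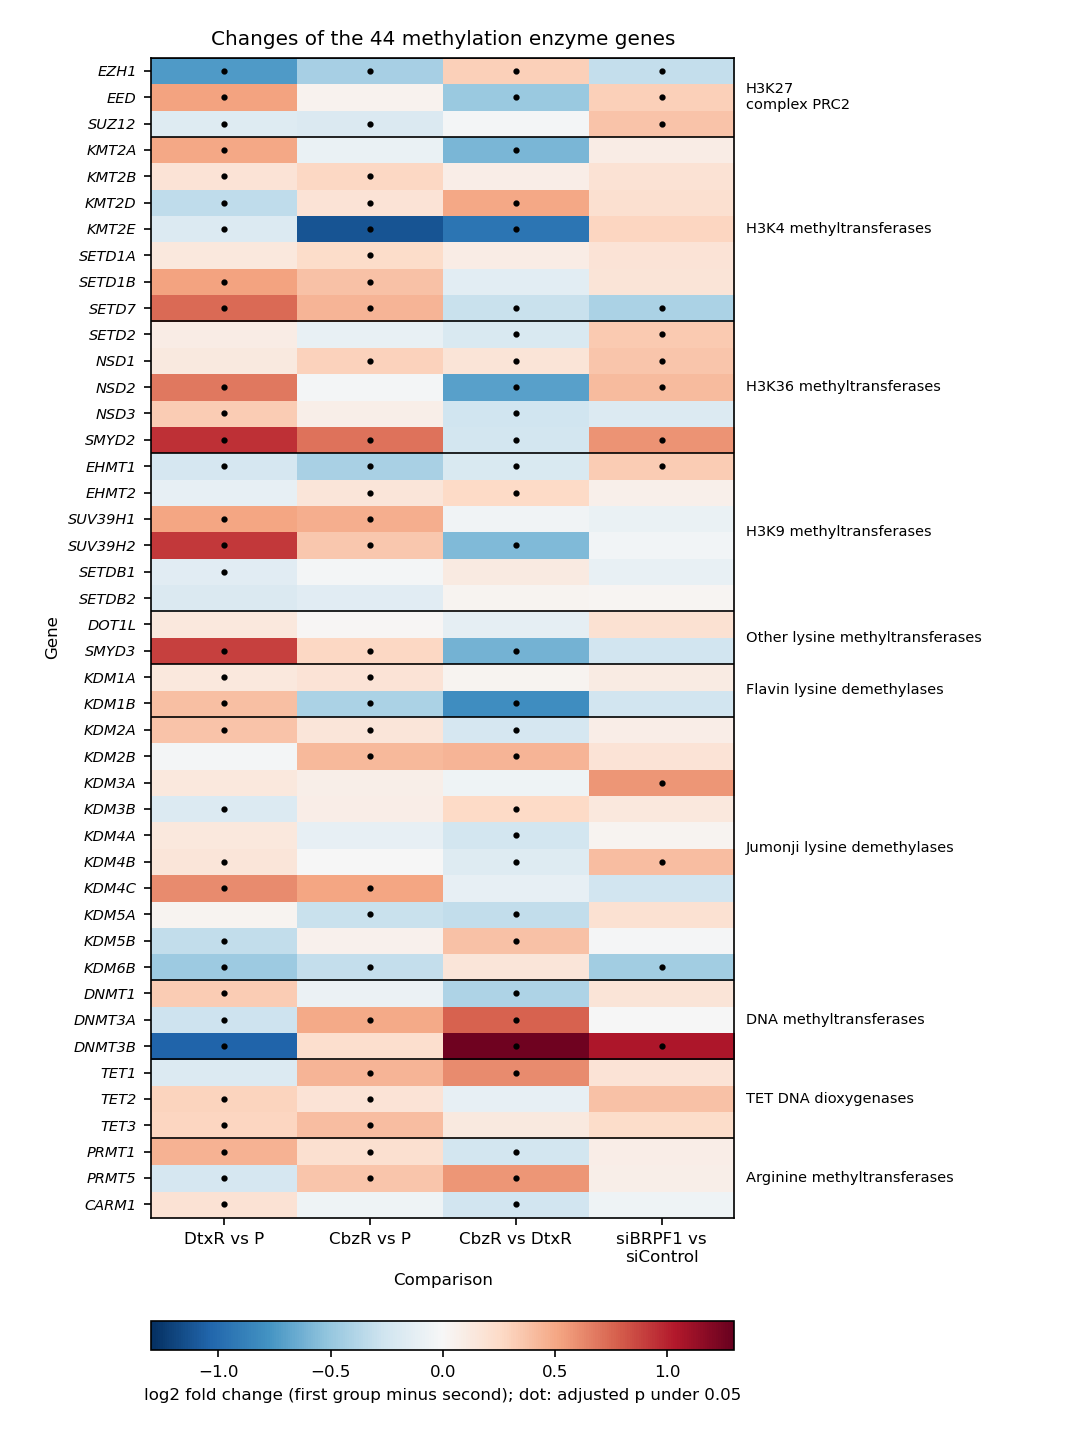
Log2 fold change of each of the 44 genes (rows, grouped by the residue or reaction of the enzyme) in the 4 comparisons (columns), with red for higher and blue for lower in the first-named group and a dot where the adjusted p is under 0.05. DNMT3B is blue in Du145-DtxR against Du145-P (-1.04) and red with siBRPF1 (1.06), and KMT2E is the deepest blue in Du145-CbzR against Du145-P (-1.13).

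The DNA methyltransferases moved in different directions. DNMT3B (chr20:32762385-32809359), a de novo enzyme, had 11.04 and 10.38 CPM in Du145-P, while Du145-DtxR had 4.89 and 5.51 and Du145-CbzR had 12.5 and 12.5. The Du145-DtxR libraries lay below all others, with a log2 fold change of -1.04 ± 0.11 (SE) against Du145-P and an adjusted p of 4.9e-06. It was called in every fit with a library left out, but at -0.998 without Du145-P replicate 1 (where no member was a DEG) and -0.95 without Du145-DtxR replicate 1 it was not a DEG. DNMT3A, the other de novo enzyme, had 50.3 and 50.4 CPM in Du145-P, while Du145-DtxR had 42.6 and 40.9 and Du145-CbzR had 71.6 and 70.6. The 3 lines did not overlap, and the log2 fold change was -0.27 ± 0.06 in Du145-DtxR (adjusted p = 0.0012) and 0.50 ± 0.05 in Du145-CbzR (adjusted p = 1.3e-05). DNMT1 had 247 and 256 CPM in Du145-P and 318 and 316 in Du145-DtxR, with a log2 fold change of 0.33 ± 0.04 and an adjusted p of 4.2e-05. In Du145-CbzR, at 239 and 240 CPM, it was not called (-0.07 ± 0.05, adjusted p = 0.21).

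**Figure D2:**
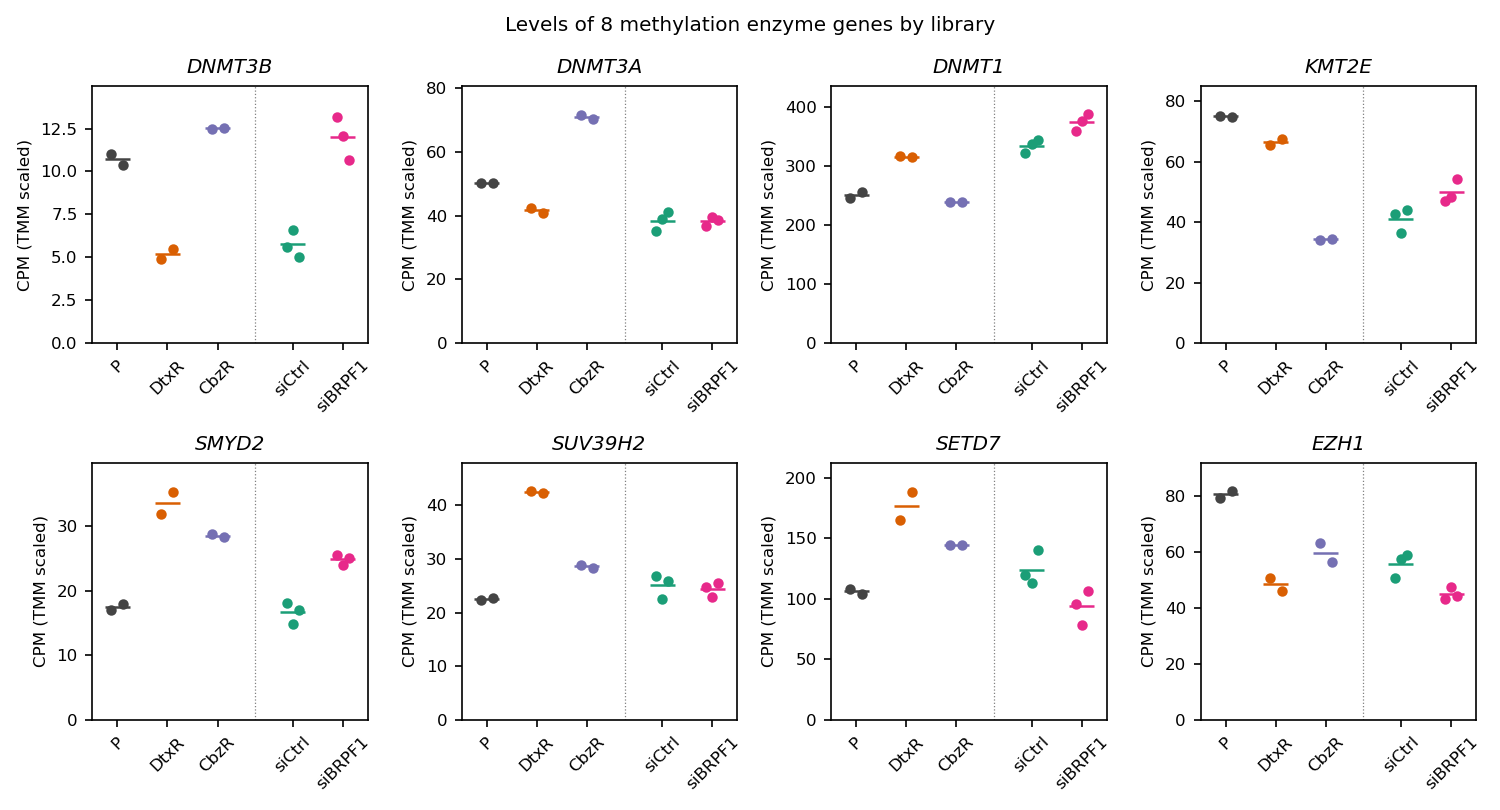
Levels of 8 genes in each library, as CPM on a linear axis from 0; points are libraries, horizontal bars are group means, and the dotted line separates the experiment on lines (2 libraries a group) from the siRNA experiment (3 a group), which were scaled separately. DNMT3B is lowest in Du145-DtxR (4.89 and 5.51 CPM) and is higher with siBRPF1 than with siControl without overlap.

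The largest rises in Du145-DtxR were of 4 lysine methyltransferases outside the large KMT2 family and of NSD2. SMYD2 (chr1:214281102-214337131), which methylates H3K36 and also non-histone proteins such as p53, had 17.0 and 17.9 CPM in Du145-P, while Du145-DtxR had 31.9 and 35.3 and Du145-CbzR had 28.8 and 28.3. Both resistant lines lay above Du145-P, with log2 fold changes of 0.94 ± 0.07 (adjusted p = 4.2e-07) and 0.71 ± 0.07 (adjusted p = 9.8e-06). SUV39H2, which places H3K9 trimethylation in heterochromatin, had 22.3 and 22.6 CPM in Du145-P, while Du145-DtxR had 42.6 and 42.4 and Du145-CbzR had 28.8 and 28.4. It was 0.92 ± 0.06 higher on the log2 scale in Du145-DtxR (adjusted p = 1.3e-07) and 0.35 ± 0.06 higher in Du145-CbzR (adjusted p = 7.5e-04). SMYD3, a lysine methyltransferase that also acts in the cytoplasm, had 24.5 and 24.4 CPM in Du145-P, while Du145-DtxR had 48.0 and 42.3 and Du145-CbzR had 29.2 and 29.8. It lay above Du145-P in both resistant lines, by 0.89 ± 0.07 (adjusted p = 6.7e-07) and 0.27 ± 0.08 (adjusted p = 0.011).

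SETD7 (SET7/9), which places monomethyl groups on H3K4 and on several transcription factors, had 108 and 104 CPM in Du145-P, while Du145-DtxR had 165 and 188 and Du145-CbzR had 144 and 144. The log2 fold changes were 0.73 ± 0.06 (adjusted p = 6.3e-07) and 0.44 ± 0.06 (adjusted p = 8.2e-05), with no overlap between the lines. NSD2, a writer of H3K36 dimethylation, had 285 and 274 CPM in Du145-P, while Du145-DtxR had 449 and 449 and Du145-CbzR had 279 and 270. Only the Du145-DtxR libraries stood apart, with a log2 fold change of 0.68 ± 0.05 (adjusted p = 1.2e-07), while Du145-CbzR was at -0.03 ± 0.05 (adjusted p = 0.65). KDM4C, a demethylase of H3K9 and H3K36, had 14.9 and 15.9 CPM in Du145-P, while Du145-DtxR had 22.8 and 24.3 and Du145-CbzR had 22.73 and 21.02. It was higher in both resistant lines, by 0.61 ± 0.08 (adjusted p = 2.6e-05) and 0.51 ± 0.08 (adjusted p = 1.9e-04) on the log2 scale.

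Among the genes of the repressive H3K27 complex PRC2, a catalytic subunit gene (EZH1) fell, EED rose and SUZ12 fell slightly in Du145-DtxR. The 44 genes do not hold every catalytic subunit gene of PRC2. EZH1 (chr17:42700275-42745049) had 79.6 and 81.9 CPM in Du145-P, while Du145-DtxR had 50.6 and 46.3 and Du145-CbzR had 63.3 and 56.5. Both resistant lines lay below Du145-P, by -0.74 ± 0.07 (adjusted p = 1.6e-06) and -0.43 ± 0.07 (adjusted p = 2.0e-04). EED, which binds trimethylated H3K27, was 0.53 ± 0.07 higher in Du145-DtxR and at 0.04 ± 0.07 in Du145-CbzR, where it was not called. SUZ12 was lower in Du145-DtxR (-0.17 ± 0.05) and in Du145-CbzR (-0.19 ± 0.05). KDM6B, an H3K27 demethylase, had 50.1 and 53.2 CPM in Du145-P, while Du145-DtxR had 40.0 and 34.4 and Du145-CbzR had 40.8 and 42.3. It was lower in both resistant lines as well, by -0.47 ± 0.08 (adjusted p = 1.7e-04) and -0.31 ± 0.07 (adjusted p = 0.0040).

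The genes grouped as H3K4 methyltransferases did not move together in Du145-DtxR: of 7 (KMT2A, KMT2B, KMT2D, KMT2E, SETD1A, SETD1B and SETD7), 4 were higher, 2 were lower and 1 was not called. KMT2E, 1 of the 2 lower, is counted here although it has no clear methyltransferase activity. KMT2A (MLL1), the partner of menin, had 90.6 and 93.4 CPM in Du145-P, while Du145-DtxR had 124 and 136 and Du145-CbzR had 87.9 and 84.8. It was higher in Du145-DtxR by 0.50 ± 0.06 (adjusted p = 9.4e-06) and not called in Du145-CbzR (-0.09 ± 0.06, adjusted p = 0.21); 18.3% of its exonic bases are shared with a same-strand gene. KMT2D (MLL4), which places H3K4 monomethylation at enhancers, had 168 and 179 CPM in Du145-P, while Du145-DtxR had 138 and 137 and Du145-CbzR had 193 and 198. The lines did not overlap, and the log2 fold change was -0.33 ± 0.05 in Du145-DtxR (adjusted p = 9.5e-05) and 0.18 ± 0.05 in Du145-CbzR (adjusted p = 0.010). KDM5B, a demethylase of H3K4, had 125 and 124 CPM in Du145-P, while Du145-DtxR had 98.6 and 99.9 and Du145-CbzR had 130 and 128. It was lower in Du145-DtxR only, by -0.32 ± 0.05 (adjusted p = 6.2e-05), with 0.05 ± 0.05 in Du145-CbzR.

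PRMT5, the main enzyme of symmetric arginine dimethylation, had 77.9 and 80.6 CPM in Du145-P, while Du145-DtxR had 66.0 and 70.4 and Du145-CbzR had 103 and 100.3. The 3 lines did not overlap, with log2 fold changes of -0.22 ± 0.05 in Du145-DtxR (adjusted p = 0.0039) and 0.36 ± 0.05 in Du145-CbzR (adjusted p = 1.3e-04). The antisense gene PRMT5-AS1 shares 28.2% of its exonic bases, and the sources used here do not give the strand setting of the libraries, so reads of the pair cannot be told apart. PRMT1, the main asymmetric arginine methyltransferase, was higher by 0.45 ± 0.05 in Du145-DtxR and by 0.21 ± 0.05 in Du145-CbzR. CARM1 (PRMT4) was 0.19 ± 0.06 higher in Du145-DtxR and was not called in Du145-CbzR (-0.06 ± 0.06); 20.2% of its exonic bases overlap YIPF2 on the opposite strand. Of the TET genes, TET2 and TET3 were higher in Du145-DtxR by 0.29 ± 0.06 and 0.28 ± 0.06.

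The second comparison asks the same of cabazitaxel-resistant cells. It shares the Du145-P libraries with the first, so the counts of genes called in both are not independent. In Du145-CbzR 21 members were higher and 7 lower, against 24.4% and 26.3% of all genes, and KMT2E was the only DEG, where 11.6% of all genes were DEGs. The median log2 fold change was 0.12 for the members and -0.01 for all genes. Without Du145-CbzR replicate 2 the count of higher members was 12.

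**Figure D3:**
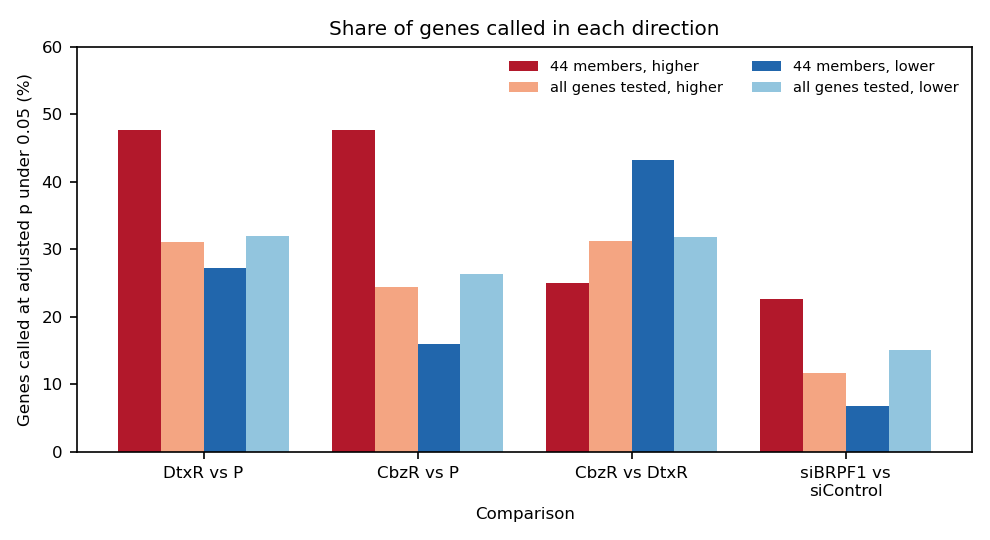
Percentage of the 44 members (dark bars) and of all genes tested (light bars) that were higher (red) or lower (blue) at an adjusted p under 0.05 in each comparison, on an axis from 0. In both resistant lines 47.7% of members were higher than in Du145-P, against 31.1% and 24.4% of all genes.

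KMT2E (chr7:104940943-105115019 on GRCh38) had 75.2 and 74.7 CPM in Du145-P, while Du145-DtxR had 65.5 and 67.5 and Du145-CbzR had 34.2 and 34.4. Du145-CbzR lay below all other libraries, with a log2 fold change of -1.13 ± 0.05 against Du145-P (adjusted p = 1.5e-08), and Du145-DtxR was also lower (-0.17 ± 0.05, adjusted p = 0.012). Genes around it moved with it in Du145-CbzR: of the 20 nearest tested neighbours (10 on each side within 5 Mb) 17 were lower and 0 higher, with a median of -0.91. In Du145-DtxR the same 20 neighbours had a median of 0.22, with 9 higher and 6 lower. The part of the region in the lower level of KMT2E was not tested.

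After KMT2E, the largest falls in Du145-CbzR were those of EZH1 (given above), EHMT1 and KDM1B. EHMT1 (GLP), a writer of H3K9 dimethylation with EHMT2, had 78.2 and 80.4 CPM in Du145-P, while Du145-DtxR had 69.7 and 66.7 and Du145-CbzR had 58.5 and 60.1. The lines did not overlap, with log2 fold changes of -0.22 ± 0.05 (adjusted p = 0.0032) and -0.42 ± 0.05 (adjusted p = 4.0e-05), and the median of its 14 neighbours was -0.62 in each line. KDM1B (LSD2), an H3K4 demethylase of gene bodies, had 87.6 and 81.2 CPM in Du145-P, while Du145-DtxR had 110 and 112 and Du145-CbzR had 64.9 and 61.9. It was the one member called higher in Du145-DtxR (0.39 ± 0.05, adjusted p = 5.0e-05) and lower in Du145-CbzR (-0.41 ± 0.06, adjusted p = 7.1e-05). KDM5A, another H3K4 demethylase, had 72.0 and 70.4 CPM in Du145-P against 57.3 and 59.4 in Du145-CbzR (-0.29 ± 0.05 on the log2 scale, adjusted p = 6.4e-04).

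TET1 and KDM2B rose in Du145-CbzR without a called change in Du145-DtxR, and SUV39H1 rose in both lines. TET1 had 4.94 and 3.98 CPM in Du145-P, while Du145-DtxR had 4.34 and 3.55 and Du145-CbzR had 5.98 and 6.14. Its log2 fold change in Du145-CbzR was 0.44 ± 0.16 (adjusted p = 0.036), and it was not called when any of 3 single libraries was left out (Du145-P replicate 2, or either Du145-CbzR replicate) or in DESeq2 (adjusted p = 0.13). SUV39H1, the partner of SUV39H2, had 12.8 and 14.1 CPM in Du145-P, while Du145-DtxR had 20.0 and 18.6 and Du145-CbzR had 17.4 and 19.9. It was higher in both resistant lines, by 0.52 ± 0.09 (adjusted p = 3.4e-04) and 0.47 ± 0.09 (adjusted p = 9.5e-04); 21.2% of its exonic bases are shared with an opposite-strand gene. KDM2B, an H3K36 demethylase that binds unmethylated CG-rich DNA, had 27.7 and 29.4 CPM in Du145-P, while Du145-DtxR had 27.9 and 28.2 and Du145-CbzR had 37.2 and 39.1. Only the Du145-CbzR libraries stood above the rest, by 0.42 ± 0.07 on the log2 scale against Du145-P (adjusted p = 2.4e-04).

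Over both lines, 13 members were higher than in Du145-P in each (among them KMT2B, SETD1B, KDM1A and KDM2A beside those above) and 5 were lower in each (EZH1, SUZ12, KMT2E, EHMT1 and KDM6B). Opposite calls were made for 4 (KMT2D, DNMT3A, PRMT5 and KDM1B), and 5 were called in neither line (SETD2, SETDB2, DOT1L, KDM3A and KDM4A). Of all 18218 genes 13.3% were higher in both lines, 13.6% lower in both, 10.3% called in opposite directions and 23.3% called in neither, and both comparisons share the Du145-P libraries. KDM4A shares 40.2% of its exonic bases with a same-strand gene. Of the rest, 7 were higher in Du145-DtxR alone in the calls (EED, KMT2A, NSD2, NSD3, KDM4B, DNMT1 and CARM1), 4 lower (SETDB1, KDM3B, KDM5B and DNMT3B), 5 higher in Du145-CbzR alone (SETD1A, NSD1, EHMT2, KDM2B and TET1) and 1 lower (KDM5A).

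In the direct comparison of Du145-CbzR with Du145-DtxR SETDB1 (0.12 ± 0.06, adjusted p = 0.09) and SETD1A (0.10 ± 0.06, adjusted p = 0.17), each called in 1 line alone, did not pass the test, and the others called in 1 line alone did. There 11 members were higher and 19 lower in Du145-CbzR, against 31.2% and 31.8% of all genes, with 1 DEG, DNMT3B, against 20.9% of all genes. The median log2 fold change was -0.11 for the members and 0.01 for all genes. DNMT3B was 1.27 ± 0.11 higher in Du145-CbzR (2.41-fold, adjusted p = 8.2e-07), DNMT3A 0.77 ± 0.06 higher (adjusted p = 1.8e-07) and DNMT1 lower (-0.40 ± 0.04, adjusted p = 8.2e-06), so the maintenance enzyme and the de novo enzymes differed in opposite directions. TET1 (0.62 ± 0.16, adjusted p = 0.0056), PRMT5 (0.58 ± 0.05, adjusted p = 1.6e-06), KMT2D (0.51 ± 0.05, adjusted p = 2.5e-06) and KDM2B (0.44 ± 0.07, adjusted p = 1.1e-04) were the other largest rises. The largest falls were of KMT2E (-0.95 ± 0.06), KDM1B (-0.81 ± 0.06), NSD2 (-0.71 ± 0.05), SMYD3 (-0.62 ± 0.07), KMT2A (-0.59 ± 0.06) and SUV39H2 (-0.57 ± 0.06), with adjusted p between 2.6e-08 and 1.3e-05. Of the 5 H3K36 methyltransferases 4 were lower and 1, NSD1, was higher.

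The neighbours of some members moved as far as the members. In Du145-DtxR, 10 of the 33 called members had neighbours with a median beyond 0.3 in either direction, and in Du145-CbzR 4 of 28 did. Of all called genes 32.1% and 20.7% had such neighbours, so these counts were no higher than among called genes at large. The neighbours of PRMT5 in Du145-DtxR had a median of -1.17, with 14 of 20 lower, and those of KMT2D a median of -0.67, with 11 of 20 lower; PRMT5 and KMT2D were themselves at -0.22 and -0.33. SMYD3 and SUV39H2 lay among higher genes in Du145-DtxR, with neighbour medians of 0.65 and 0.57. For EZH1 the neighbour median was 0.09 in Du145-DtxR, opposite in sign to the gene. In the direct comparison of Du145-CbzR with Du145-DtxR 9 of 30 called members had neighbours with a median beyond 0.3, against 35.1% of all called genes. The neighbour median there was -1.3 for KMT2E, -0.80 for NSD2 and -0.59 for SMYD3. It was 0.88 for PRMT5, 0.65 for KMT2D and 0.35 for DNMT3B, so all of these had the sign of the gene. For KDM1B, KMT2A, SUV39H2, DNMT3A, TET1 and KDM2B it lay between -0.16 and 0.08. The part of neighbouring regions in these differences was not tested.

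**Figure D4:**
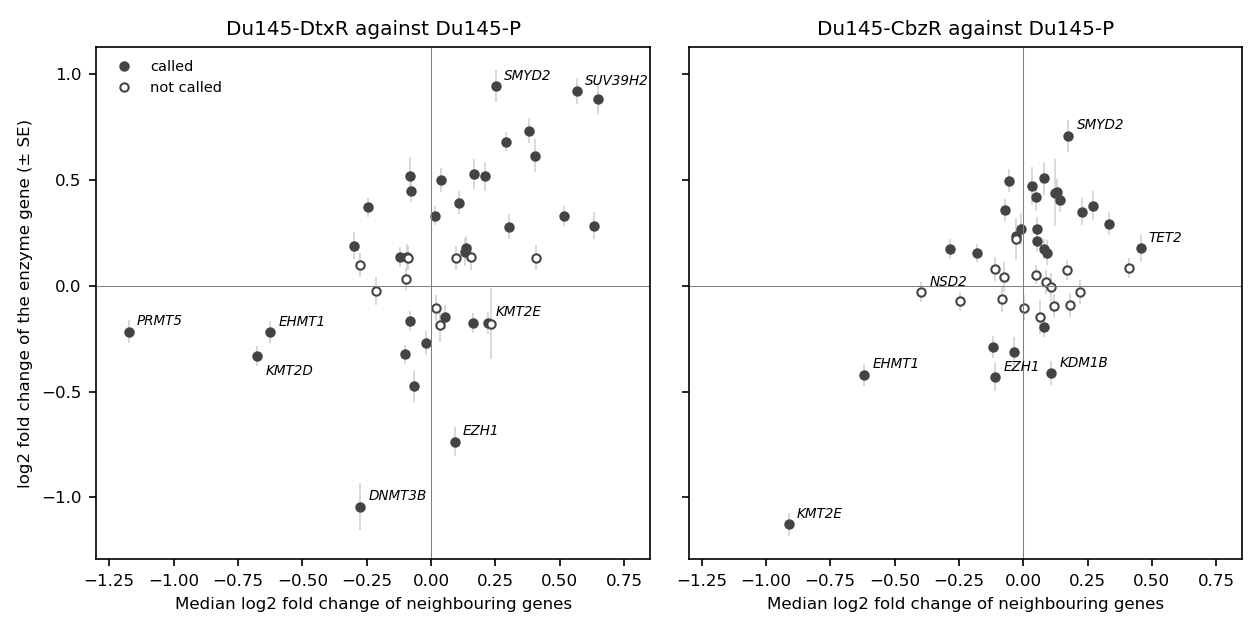
Log2 fold change of each member (vertical axis, bars are ± SE) against the median log2 fold change of up to 20 neighbouring tested genes (horizontal axis) in the 2 comparisons with Du145-P; filled points were called at an adjusted p under 0.05. KMT2E stands at the lower left in Du145-CbzR (-1.13, with neighbours at -0.91), and EZH1 in Du145-DtxR stands at -0.74 with neighbours at 0.09.

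The last comparison asks how the enzymes respond when BRPF1 is reduced in Du145-DtxR cells. With siBRPF1 10 members were higher and 3 lower, against 11.6% and 15.1% of all 15704 genes tested, and 1 was a DEG, DNMT3B, against 3.83% of all genes. The median log2 fold change was 0.15 for the members and -0.01 for all genes. Leaving out 1 library at a time moved the counts to between 6 and 15 higher and between 0 and 3 lower: without siControl replicate 2 there were 6 higher and 1 lower, and without siBRPF1 replicate 1 there were 0 lower. With a term for the replicate number in the fit, 19 members were higher and 6 lower. In that fit 3193 of all genes were higher, against 1820 in the main fit.

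DNMT3B had 5.62, 6.61 and 5.04 CPM with siControl and 13.2, 12.1 and 10.7 with siBRPF1. The groups did not overlap, and the log2 fold change was 1.06 ± 0.14 (2.08-fold, adjusted p = 4.3e-04). It was called in every fit with a library left out, but was not a DEG without siControl replicate 3 (0.97) or without siBRPF1 replicate 1 (0.98). DNMT3A was at 0.00 ± 0.09 (adjusted p = 0.99) and DNMT1 at 0.16 ± 0.07 (adjusted p = 0.13), neither called.

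SMYD2 had 18.1, 14.9 and 17.0 CPM with siControl and 25.6, 24.0 and 25.2 with siBRPF1, 0.58 ± 0.10 higher on the log2 scale (adjusted p = 0.0019). KDM3A, an H3K9 demethylase induced by hypoxia, had 26.2, 27.3 and 32.7 CPM with siControl and 42.0, 39.6 and 46.6 with siBRPF1, a log2 fold change of 0.57 ± 0.11 (adjusted p = 0.0031). Neither gene's groups overlapped, and KDM3A had been called in neither resistant line. NSD2 had 229, 249 and 275 CPM with siControl and 319.6, 327 and 358 with siBRPF1, again without overlap (0.42 ± 0.09, adjusted p = 0.0061).

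KDM4B, a demethylase of H3K9 and H3K36, had 40.2, 47.2 and 46.1 CPM with siControl and 55.3, 60.9 and 60.2 with siBRPF1 (0.40 ± 0.09, adjusted p = 0.0086). SUZ12 had 72.4, 69.2 and 88.0 CPM with siControl and 102, 86.1 and 108 with siBRPF1, groups that overlap. Its log2 fold change of 0.37 ± 0.11 (adjusted p = 0.034) was not called when any of 4 single libraries was left out (siControl replicate 1 or 2, siBRPF1 replicate 1 or 3). EED (0.31 ± 0.09), EHMT1 (0.33 ± 0.08), NSD1 (0.36 ± 0.11) and SETD2 (0.34 ± 0.12), which places H3K36 trimethylation, were the other members called higher.

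The 3 members lower with siBRPF1 were KDM6B, SETD7 and EZH1. KDM6B had 78.5, 95.5 and 91.3 CPM with siControl and 57.1, 71.2 and 65.5 with siBRPF1 (-0.45 ± 0.11, adjusted p = 0.0095). SETD7 had 119, 113 and 140 CPM with siControl and 95.8, 78.5 and 106 with siBRPF1 (-0.41 ± 0.12, adjusted p = 0.027). EZH1 had 50.8, 57.8 and 59.1 CPM with siControl and 43.3, 47.4 and 44.3 with siBRPF1 (-0.31 ± 0.09, adjusted p = 0.025). None of the 3 overlapped between groups, and each lost its call in at least 1 fit with a library left out: KDM6B without siControl replicate 2 or siBRPF1 replicate 1, SETD7 without siControl replicate 3 or siBRPF1 replicate 1 or 2, and EZH1 without siControl replicate 2 or siBRPF1 replicate 1 or 3.

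KMT2A and PRMT5 did not pass the test. KMT2A had 80.8, 95.9 and 132 CPM with siControl and 101, 108 and 122 with siBRPF1, with a log2 fold change of 0.10 ± 0.15 (adjusted p = 0.67), and only without siControl replicate 3 was it called (0.32, adjusted p = 0.038). PRMT5 had 73.2, 74.5 and 64.1 CPM with siControl and 78.3, 72.9 and 71.6 with siBRPF1 (0.07 ± 0.09, adjusted p = 0.58). The groups of both genes overlapped.

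Set beside the difference between Du145-DtxR and Du145-P, which used other libraries, 10 members were called in both comparisons. The direction was opposite for 4: DNMT3B, SUZ12 and EHMT1 were lower in Du145-DtxR and higher with siBRPF1, and SETD7 was higher in Du145-DtxR and lower with siBRPF1. It was the same for 6: EED, NSD2, SMYD2 and KDM4B were higher in both, and EZH1 and KDM6B were lower in both. Of all 15596 genes tested in both experiments, 6.37% were higher in both, 7.93% lower in both, 2.08% lower in Du145-DtxR and higher with siBRPF1, and 3.67% the reverse. The level of DNMT3B with siControl (5.76 ± 0.795 CPM, n = 3) and with siBRPF1 (11.98 ± 1.28) was scaled apart from that of the lines and is not compared with it.

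**Figure D5:**
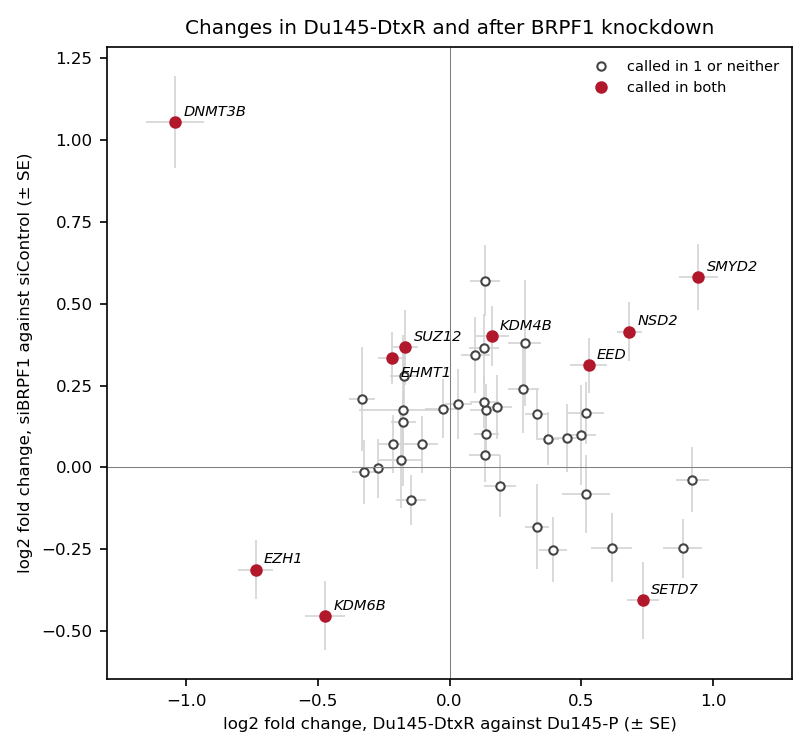
Log2 fold change with siBRPF1 against siControl (vertical axis) against that of Du145-DtxR against Du145-P (horizontal axis) for the 44 members, with bars of ± SE; the 10 filled points were called at an adjusted p under 0.05 in both. DNMT3B stands at the upper left (-1.04 and 1.06), and SMYD2 at the upper right (0.94 and 0.58).

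The partners of the enzymes were read from 8 lists of 78 other genes. Of all genes tested, 31.1% were higher and 32.0% lower in Du145-DtxR, 24.4% and 26.3% in Du145-CbzR, and 11.6% and 15.1% with siBRPF1, and the count of each short list stands beside these shares. Of 4 partners of PRMT5 in the methylosome 3 were higher in Du145-DtxR and none lower: WDR77 (MEP50), which binds PRMT5 directly, rose from 19.7 ± 0.122 to 46.9 ± 3.19 CPM (log2 fold change 1.26, adjusted p = 2.6e-08) while PRMT5 itself was lower. In Du145-CbzR 2 were higher and 1 lower, and with siBRPF1 none of the 4 was called. Of 8 genes of the KDM1A corepressor complex 5 were lower and 1 higher in Du145-DtxR (median log2 fold change -0.30), with HMG20B at 154 ± 5.67 CPM against 343 ± 18.02 (-1.16) and HDAC1 at 63.7 ± 1.72 against 136 ± 1.60 (-1.09). In Du145-CbzR 3 were lower and 1 higher, and with siBRPF1 2 were lower and 2 higher.

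Of 8 genes of methyl donor metabolism 6 were higher and 2 lower in Du145-DtxR, against 31.1% and 32.0% of all genes, and the list's median log2 fold change was 0.30. NNMT, which consumes S-adenosylmethionine to methylate nicotinamide, had 33.3 ± 2.01 CPM in Du145-P, 195 ± 7.34 in Du145-DtxR (log2 fold change 2.55, adjusted p = 1.8e-11) and 99.2 ± 0.450 in Du145-CbzR (1.57, adjusted p = 1.7e-09). In Du145-CbzR 2 of the 8 were higher and 1 lower. With siBRPF1 3 were higher and 0 lower (11.6% and 15.1% of all genes), including MAT2A, which makes S-adenosylmethionine, at 223 ± 4.37 CPM against 169 ± 1.85 (0.40, adjusted p = 0.0023).

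Of 9 genes that maintain or read DNA methylation 3 were higher and 0 lower in Du145-DtxR, 2 and 1 in Du145-CbzR, and 4 and 1 with siBRPF1. Of all genes 31.1%, 24.4% and 11.6% were higher in these comparisons. MBD1, a reader of methylated DNA, had 98.3 ± 1.86 CPM in Du145-DtxR against 49.3 ± 2.27 in Du145-P (1.00, adjusted p = 2.3e-08). UHRF1, which brings DNMT1 to newly copied DNA, had 120 ± 4.67 CPM with siBRPF1 against 87.8 ± 2.20 with siControl (0.45, adjusted p = 0.0017).

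Of 8 readers of H3K9 methylation and partners of SETDB1 1 was higher and 3 lower in Du145-DtxR, 2 and 3 in Du145-CbzR, and 2 and 1 with siBRPF1. CBX5 (HP1 alpha), which binds methylated H3K9, had 195 ± 2.39 CPM in Du145-P, 167 ± 9.22 in Du145-DtxR (-0.22) and 390 ± 1.48 in Du145-CbzR (1.00, adjusted p = 1.8e-08), and was lower with siBRPF1 (-0.53, adjusted p = 0.0015). Of 12 COMPASS and MLL subunits 3 were higher and 3 lower in Du145-DtxR, 5 and 3 in Du145-CbzR, and 3 and 0 with siBRPF1, against 31.1% and 32.0%, 24.4% and 26.3%, and 11.6% and 15.1% of all genes. PAXIP1, a subunit of the KMT2D complex on chromosome 7, had 44.2 ± 0.827 CPM in Du145-P and 23.5 ± 0.495 in Du145-CbzR (-0.91, adjusted p = 2.7e-07), and WDR5, the shared core subunit, was higher in Du145-DtxR (0.31), lower in Du145-CbzR (-0.44) and higher with siBRPF1 (0.58).

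Of 7 PRC2 partners 1 was higher and 2 lower in Du145-DtxR, 2 and 1 in Du145-CbzR, and 2 and 1 with siBRPF1, where PHF1 had 26.1 ± 1.99 CPM against 48.1 ± 4.196 (-0.88, adjusted p = 1.7e-04). Of 22 other methyltransferases and demethylases 6 were higher and 5 lower in Du145-DtxR, 9 and 6 in Du145-CbzR, and 3 and 1 with siBRPF1. KMT5A, the H4K20 monomethyltransferase, was called higher in all 3 (0.86, 0.59 and 0.41). KDM7A, a demethylase of H3K9 and H3K27, had 23.7 ± 1.45 CPM in Du145-P and 8.38 ± 1.19 in Du145-CbzR (-1.50, adjusted p = 6.2e-07), and was lower with siBRPF1 (-0.81, adjusted p = 0.013).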

How the data were processed

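RNA sequencing of 12 libraries in 2 experiments was analysed. By the authors' account, FastQC was used for read quality, STAR for alignment to a GENCODE transcriptome of GRCh38, Salmon for quantification and tximport for gene sums; versions and strand setting are not given in the sources used here. The deposited tables hold estimated counts, although their sheets are named TPM: their columns sum to different totals, and 58.4% and 62.8% of values above 0 are exactly whole numbers. The design had been written for either unit, and its branch for counts was used.

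Each table has 60660 rows; 44 rows are pseudoautosomal copies on Y, and their counts were summed with those on X. After rounding and filterByExpr (18218 and 15704 genes tested), TMM factors and the quasi-likelihood test of edgeR 4.0.16 (R 4.3.3) were applied, with the 6 libraries of an experiment in 1 fit and no comparison between experiments. Benjamini-Hochberg adjustment covered all genes tested. A gene was called at an adjusted p under 0.05, and DEGs also lay beyond 1 or -1 on the log2 scale. The SE was derived from the F statistic (fold change on the log2 scale over its root). Levels are CPM after TMM, and levels per kb use exonic lengths of GENCODE 44 (union of exons over all transcripts), whose coordinates are given. Neighbours are up to 10 tested genes on each side within 5 Mb. Of the members, 25 share exonic bases with another gene. The procedure was tested on simulated data.

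The members and lists were chosen with earlier results of these data known. Values per library are given for members that were DEGs, for up to 6 of the largest called changes in each direction and comparison and for KMT2A and PRMT5 (in the direct comparison of the resistant lines, beside the comparisons with Du145-P), and up to 3 genes of each list were named; DNMT1 and the promoters were chosen after values were seen. Alternatives were no filter, a mean of at least 1 CPM, DESeq2 size factors, the DESeq2 test (DESeq2 1.42.0), a replicate block, only the groups compared, and each replicate left out. A few genes that the rule names are not reported here.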

Additional observations from a re-analysis of the deposited data

Results flagged for a closer look

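For 4 of 44 members the called direction against Du145-P was opposite in the resistant lines, as for 10.3% of all 18218 genes. The direct test of Du145-CbzR against Du145-DtxR also passed the threshold in edgeR's quasi-likelihood test, which opposite calls make likely. The neighbours of PRMT5 and KMT2D differed the same way in the direct comparison (medians 0.88 and 0.65), those of DNMT3A and KDM1B little (-0.02 and -0.11). KMT2D was 0.51 higher on the log2 scale in Du145-CbzR (adjusted p = 2.5e-06), with a called fall in Du145-DtxR (-0.33) and a called rise in Du145-CbzR (0.18). DNMT3A was 0.77 higher (adjusted p = 1.8e-07; -0.27 and 0.50). PRMT5 was 0.58 higher (adjusted p = 1.6e-06; -0.22 and 0.36). KDM1B was the reverse, at -0.81 (adjusted p = 1.2e-07; 0.39 and -0.41). For each of the 4 the 2 libraries of a line did not overlap those of the other lines, which the calls they were picked by also make likely.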

How the results depend on the processing

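No named member changed direction under any alternative. With a mean of at least 1 CPM the median log2 fold change of the members was 0.107 in Du145-DtxR against Du145-P and -0.076 in Du145-CbzR against Du145-DtxR, and 1383 of all genes were DEGs in Du145-CbzR against Du145-P (2117 in the main analysis); the filter tests fewer genes. TET1 in Du145-CbzR against Du145-P lost its call without a filter (0.44, adjusted p = 0.066) and in DESeq2 (0.45, adjusted p = 0.13). Between lines the correlations of deviations of same-number libraries were -0.021, 0.085 and 0.032. Between siRNA groups they were 0.059, 0.17 and 0.342, and those of different numbers ran from -0.325 to 0.202. Whether the replicate numbers pair the siRNA libraries was not settled, and the main fit used no pairing. With a replicate block 19 members were higher and 6 lower with siBRPF1, and 3193 of all genes were higher. Leaving out 1 library at a time gave, in Du145-DtxR against Du145-P, 0 to 1 DEGs among members and a median of 0.132 to 0.154; in Du145-CbzR against Du145-P, 12 to 21 members higher and a median of 0.1 to 0.132; in Du145-CbzR against Du145-DtxR, a median of -0.119 to -0.069; and with siBRPF1, 6 to 15 members higher, 0 to 3 lower, 0 to 1 DEGs, and 935 to 1988 of all genes higher and 1468 to 2412 lower. In these fits 15 values of named members lost their call and 1 gained it; the cause was not tested. Depth limits TET1 most, with 68 to 184 counts at the lowest library of each group.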
